A study of Mus musculus with 5 samples.

Results

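Tmem176-high macrophages are here the cells that carry the complement component C1q in their RNA and hold the largest share of transcripts of Tmem176a, Tmem176b and Pltp. Cells were kept with at least 200 genes and at most 20% mitochondrial RNA. A macrophage then needed at least 20 unique molecular identifiers (UMIs, each standing for 1 captured RNA molecule) of C1qa, C1qb and C1qc together, at most 1 of the T cell receptor complex genes Cd3e, Cd3d and Cd3g together, and at most 1 of the B cell gene Cd79a. These limits left 2606 of 21531 cells, which were ranked by the share of their gene UMIs that fell on the 3 genes. The top 25%, 652 cells, are the Tmem176-high macrophages, and the bottom 25%, also 652 cells, are the Tmem176-low macrophages they are set against, with 1302 cells between them. The members were chosen by the measured levels of the 3 genes and of the C1q genes, so those levels are a description and support nothing.

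The cells were live and sorted for CD45, and came from the tumour, the dLN and the non-dLN of each of 3 mice, run as 1 pool. The mice had been given nivolumab_mIgG1_D265A (mouse 1), nivolumab_mIgG1 (mouse 2) or the isotype control MOPC21 (mouse 3), nivolumab being an antibody against PD-1, an inhibitory receptor on T cells. Each antibody thus has 1 mouse, and the strain, the tumour and the ages of the mice are not given in the sources used here. Samples are told apart only by 9 numbered hashtag antibodies that nothing in these sources pairs with a mouse or a site, so they are called populations 1 to 9, they are replicates of no group, and neither antibodies nor tissues were compared. No test was run for that reason. Every interval is a 95% interval for counting error only, and cells of 1 population are no replicates.

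Tmem176a and Tmem176b are membrane proteins of intracellular vesicles, related to the MS4A family and known as cation channels of dendritic cells and macrophages. Pltp is the secreted phospholipid transfer protein, which moves phospholipids between lipoproteins and is a target gene of the liver X receptors, sterol-sensing nuclear receptors that drive cholesterol export. C1q is made largely by macrophages, and macrophages of inflamed tissue are renewed from blood monocytes, which lose genes such as Ly6c2 and gain macrophage genes as they mature.

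Tmem176a (ENSMUSG00000023367, chromosome 6, 48840919 to 48847071, plus strand) and Tmem176b (ENSMUSG00000029810, chromosome 6, 48833818 to 48841496, minus strand) stand head to head in the mouse genome (GENCODE vM21, GRCm38), and their annotated gene bodies share 578 bases. Whether counting used the strand is not stated, so part of the reads of each could fall on the other. Pltp (ENSMUSG00000017754) lies on another chromosome, at 164839518 to 164857711 of chromosome 2 on the minus strand. The DNA between the RefSeq starts used here for the paired genes is shown because it is upstream of both those starts. Beside it stands the DNA upstream of Pltp. RefSeq has 2 promoter windows for Tmem176a and 3 for Tmem176b, and the stretch shown lies inside both gene bodies given above. Capitals mark GGAAGT, a core bound by factors of the ETS family such as PU.1, searched on both strands. The sequences are from RefSeq (GRCm38.p6).
Tmem176b to Tmem176a, chr6:48841375-48841482, plus strand: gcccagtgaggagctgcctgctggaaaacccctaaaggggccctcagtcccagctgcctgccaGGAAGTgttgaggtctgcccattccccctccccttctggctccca
Pltp upstream, chr2:164857709-164857858, minus strand: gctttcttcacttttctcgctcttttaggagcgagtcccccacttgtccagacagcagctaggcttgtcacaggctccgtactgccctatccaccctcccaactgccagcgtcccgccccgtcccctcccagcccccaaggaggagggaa
The 108 bases between the paired starts hold GGAAGT once, and the 150 bases upstream of Pltp hold none. Of 32851 RefSeq promoter windows of 300 bases, 23.8% hold these letters. AGGTCA, the half-site of many nuclear receptors, was in 16.3% of the windows but in none of the windows used for the 3 genes.

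The macrophage label fitted its markers. All 8 macrophage markers listed for the check were measured in both classes, and their summed level was 11373, 11396 and 9658 UMIs per 1000000 UMIs of the class (CPM) in Tmem176-high cells of populations 1, 4 and 7, against 8372, 5403 and 6361 CPM in Tmem176-low cells. Adgre1, the F4/80 antigen, and Apoe, which loads cholesterol onto lipoproteins, were the markers called higher by the rule given below. Most of the difference between the sums was Apoe, with 7763, 7833 and 6364 CPM in high cells against 5314, 2314 and 3209 CPM in low cells. By the mean log2 ratio given below, 6 of the 8 markers were above 0 and 2 below. Adgre1 had 528, 443 and 378 CPM in Tmem176-high cells against 203, 168 and 249.96 CPM in Tmem176-low cells. Csf1r, the receptor for the macrophage growth factor, had 683, 689.9 and 594 CPM in Tmem176-high cells and 603, 604 and 623 CPM in Tmem176-low cells. C1qa, part of the C1q sum used in the selection, stood at 5019, 5406 and 6480 CPM in high cells against 3674, 4335 and 4472 CPM in low cells.

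Nearly all of these cells came from 3 hashtag populations. Populations 1, 4 and 7 held 450, 805 and 1313 of the ranked macrophages, 21 lay in the other 6 populations and 17 had no clear hashtag. Of the Tmem176-high cells, 202 (31.0%, 27.4 to 34.7%) were in population 1, 215 (33.0%, 29.4 to 36.7%) in population 4 and 223 (34.2%, 30.6 to 38.0%) in population 7. Of the Tmem176-low cells, 81 (12.4%), 222 (34.0%) and 332 (50.9%) were in these populations. Set against a population's own macrophages, Tmem176-high cells made up 44.9% (40.2 to 49.6%) in population 1, 26.7% (23.7 to 29.9%) in population 4 and 17.0% (15.0 to 19.1%) in population 7. These intervals do not overlap, but each population is 1 sample, and the low end was not its mirror image: Tmem176-low cells made up 18.0%, 27.6% and 25.3%.

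The depth of the classes differed. Tmem176-high cells had a median of 12340, 16124 and 19244 UMIs in populations 1, 4 and 7, against 10268, 12933 and 14669 in Tmem176-low cells, and the cells between the classes had 14515, 18144 and 19165. A shallow cell reaches a count of 0 more easily, and 622 of the 652 low cells had no UMI of the 3 genes. Mitochondrial shares (medians 1.04% and 1.02%), ribosomal shares (9.73% and 10.1%) and the nuclear RNA Malat1 (5968 and 6160 CPM) lay close in high and low cells. Among cells of 5000 to 20000 UMIs alone, 145 genes were higher and 243 lower by the rule given below. Of these, 86 and 170 were among the 165 and 229 called in cells of any depth. The part of depth beyond that was not tested. No cell of either class was called a doublet by Scrublet, and no cell barcode occurred more than once. Scrublet called none of the 2606 ranked macrophages, so its calls cannot show whether the classes differ in doublets.

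The ranking genes separated the classes by construction. The score was 6.11 to 122 UMIs per 10000 in Tmem176-high cells (median 12.9), 0.390 to 6.10 in the cells between, and 0 to 0.387 in Tmem176-low cells (median 0), so the high cell nearest the limit differed from the next cell by little. In populations 1, 4 and 7, Tmem176a had 463, 273 and 212 CPM in high cells and 0 in low cells. Tmem176b had 918, 649 and 523 CPM in high cells, against 0, 0.627 and 0.801 CPM in low cells, and Pltp had 652, 674 and 383 CPM against 1.14, 1.88 and 3.40 CPM. All 3 genes were lowest in the high cells of population 7. Of the 652 high cells, 480 carried all 3 genes, 44 had no Pltp and 50 had neither Tmem176 gene. In the 18925 cells outside the ranking, which include other myeloid cells, the genes stood at 18.6, 35.2 and 29.1 CPM for Tmem176a, Tmem176b and Pltp, against 83.4, 196 and 220.4 CPM in all ranked macrophages. Of 2970 cells that reached the C1q limit 2606 were ranked. The rest failed the Cd3 or Cd79a limit and are among the 18925, and their part in these levels was not tested.

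**Figure D1:**
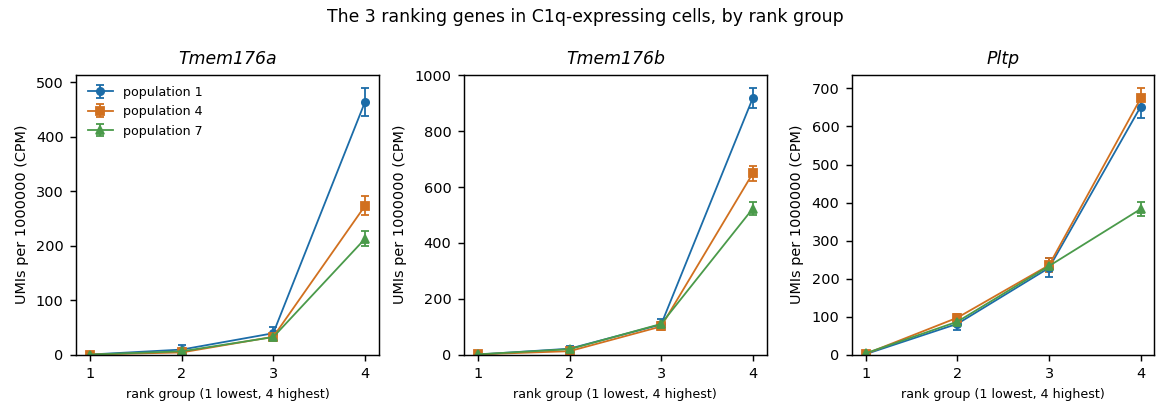
Levels of the 3 ranking genes (CPM, y axis) in 4 groups of cells by rank (x axis, 1 lowest and 4 highest) within populations 1, 4 and 7; points are sums over the cells of a group and bars are exact 95% Poisson intervals. The ranking itself sets the slope; in group 3 Tmem176b is at 101 to 109.6 CPM, whereas Pltp is already at 228 to 235 CPM.

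A gene left out of the ranking is free to differ, and the paired genes and Pltp moved together by unequal amounts. When the macrophages were ranked on Tmem176a and Tmem176b alone, Pltp had 562, 536 and 225 CPM in the top 25% of cells in populations 1, 4 and 7, against 177, 135 and 138 CPM in the cells at the bottom. That made Pltp 3.18-fold (2.85 to 3.55), 3.97-fold (3.67 to 4.30) and 1.63-fold (1.51 to 1.76) higher, least in population 7. When ranked on Pltp alone, Tmem176a was 4.67-fold, 14.6-fold and 4.02-fold higher and Tmem176b 5.34-fold, 10.9-fold and 3.27-fold higher in top cells than in bottom cells. Between the paired genes the ratios were larger: ranking on Tmem176a alone gave 19.6-fold, 22.7-fold and 15.3-fold higher Tmem176b. Of the 652 top cells on the Tmem176 genes, 317 (48.6%) were also among the 652 top cells on Pltp, which are 25.02% of the macrophages. The shared gene body stands beside the tie of the paired genes, and its part in it was not tested.

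Tmem176-high macrophages had less RNA of 5 of 9 monocyte genes, of 7 of 17 hypoxia and glycolysis genes and of the arginine enzymes Arg1 and Nos2, and more of single genes such as Acp5, Ccl8 and Mrc1. With the 3 ranking genes left out of all counts and ranks, the highest ratios went to the lectin-like receptor Klra17, the chemokine Ccl8 and the lysosomal phosphatase Acp5, and the lowest to the clotting factor subunit F13a1, the elastase Mmp12 and the nitric oxide synthase Nos2. For each gene the ratio of CPM was taken within populations 1, 4 and 7, and the log2 ratios were averaged with equal weight. A gene was measured with at least 50 UMIs in all and at least 10 in each population, and called when the mean was at least 2-fold and the direction was shared by all 3 populations. Of 9853 genes measured, 165 were called higher in Tmem176-high cells (1.67%) and 229 lower (2.32%), and 41 and 75 of these were at least 2-fold apart in every population. The median over all genes was -0.06 on the log2 scale. These calls are by size, with no test, and the cells between the classes, summed over all populations, had a level between the classes for 155 of the 165 and 213 of the 229 genes. Within populations 1, 4 and 7 this held for 135, 145 and 121 of the 165 and for 194, 202 and 192 of the 229. In 4 groups by rank over all populations, 106 of the 165 and 161 of the 229 were in order through every group, and 57, 95 and 60 of the 165 and 114, 140 and 128 of the 229 within populations 1, 4 and 7. The called genes were picked for a gap between the outer classes, which favours a middle level beforehand. The share among genes not called was not computed, so these counts are a description and support nothing. Genes at 2-fold or more in either direction made up 11.4%, 8.00% and 3.17% of those measured in populations 1, 4 and 7. Population 1 had the fewest low cells, and the low cells held 880003, 3190401 and 4996891 UMIs in these populations. Counting error widens ratios where UMIs are few, and its part in these shares was not tested.

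**Figure D2:**
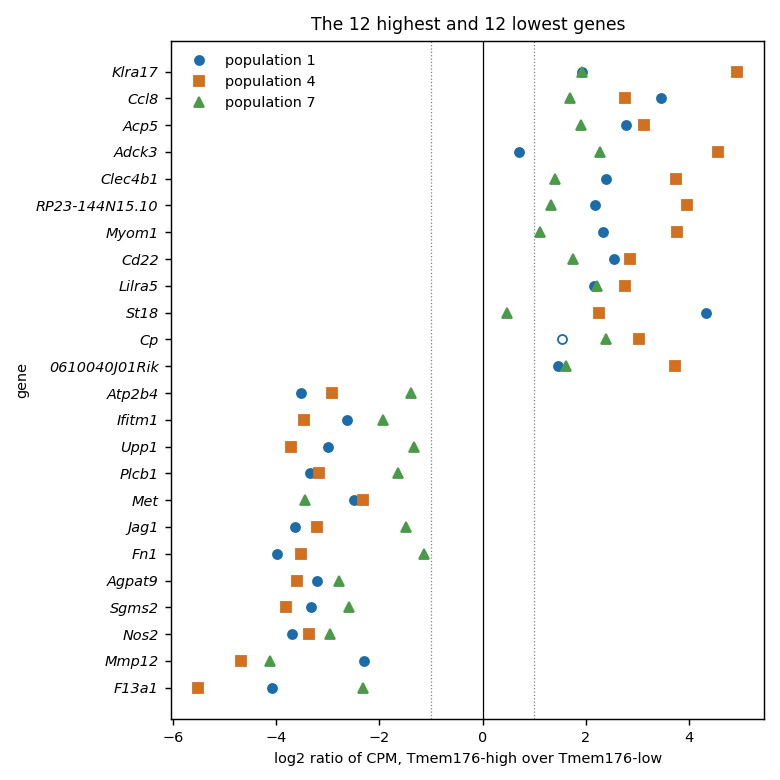
Log2 ratio of CPM in Tmem176-high over Tmem176-low macrophages (x axis) in populations 1, 4 and 7 for the 12 called genes with the highest and the 12 with the lowest mean (y axis); dotted lines mark 2-fold and the open symbol a count of 0 in low cells set to 3. Population 7 is nearest to 0 for most genes, with Mmp12 and Met among the exceptions.

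Acp5, the tartrate-resistant acid phosphatase of osteoclasts and macrophages, had 259, 227 and 177 CPM in Tmem176-high cells of populations 1, 4 and 7, against 37.5, 26.0 and 47.6 CPM in Tmem176-low cells. It was 6.90-fold (4.87 to 10.1), 8.71-fold (6.94 to 11.1) and 3.73-fold (3.21 to 4.33) higher, and no level of a high class came near one of a low class. Ccl8, a chemokine that attracts monocytes and T cells, had 200.2, 205 and 120.2 CPM in high cells, against 18.2, 30.1 and 37.2 CPM in low cells. It was 11.01-fold (6.72 to 19.4), 6.81-fold (5.50 to 8.52) and 3.23-fold (2.72 to 3.84) higher. With the macrophages in 4 groups by rank, both genes climbed from group to group in each of the 3 populations. With each cell thinned to 5000 UMIs, 54.4%, 52.5% and 38.8% of high cells held an Acp5 UMI in populations 1, 4 and 7. The shares of low cells were 16.9%, 9.57% and 16.9%. Of 322 B cells so thinned, 32.0% held an Acp5 UMI, above each low class and below each high class. For Ccl8 the B cell share was 0.621%. The part of B cell RNA in the Acp5 difference was not tested.

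Klra17, of the Ly49 family of lectin-like receptors, had 30.2, 28.8 and 23.4 CPM in Tmem176-high cells, against 7.95, 0.940 and 6.20 CPM in Tmem176-low cells, the middle value resting on 3 UMIs. Clec4b1, a C-type lectin of myeloid cells, had 95.5, 41.9 and 25.8 CPM against 18.2, 3.13 and 9.81 CPM. Lilra5, an activating leukocyte receptor, had 60.8, 48.5 and 35.2 CPM against 13.6, 7.21 and 7.60 CPM. For Clec4b1 and Lilra5 every high class lay above every low class, and the level in high cells was greatest in population 1 and least in population 7. The other genes among the top 12 rested on few molecules. Adck3, RP23-144N15.10, Myom1, Cd22, Cp and 0610040J01Rik had at most 3 UMIs in the low cells of at least 2 populations. The transcription factor gene St18 had 1 UMI in the low cells of population 1 and was 1.40-fold higher in population 7. In B cells thinned to 5000 UMIs, 21.7% held a UMI of Adck3 and 61.8% a UMI of Cd22. The thinned shares of high cells in populations 1, 4 and 7 were 1.10%, 3.92% and 1.87% for Adck3. They were 3.85%, 1.96% and 1.40% for Cd22.

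Mrc1, the mannose receptor, and Sepp1, the selenium carrier selenoprotein P, both typical of tissue-resident macrophages, were higher as well. Mrc1 had 36.5, 47.6 and 83.5 CPM in Tmem176-high cells, against 6.82, 12.2 and 38.4 CPM in Tmem176-low cells, or 5.35-fold (2.37 to 14.9), 3.89-fold (2.73 to 5.67) and 2.17-fold (1.82 to 2.61). The high cells of population 1 held less Mrc1 than the low cells of population 7, so the classes separate only within a population. Sepp1 had 557, 583 and 313 CPM against 215, 154 and 177 CPM. F13a1, listed with them, went the other way, with 3.686, 0.855 and 4.10 CPM in high cells against 62.5, 38.9 and 20.4 CPM in low cells. Of 13 resident-type genes listed, 7 were measured, 2 called higher and 1 lower, where 1.67% and 2.32% of all genes were. Maf, Stab1 and Pf4 were among those not called, and Lyve1, Timd4, Cd163 and Folr2 were under the count limit.

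Of 9 monocyte genes measured, 5 were called lower in Tmem176-high cells, where 2.32% of all genes were, and none was called higher, with 1 mean above 0 and a median log2 ratio of -1.17 against -0.06 over all genes. Ly6c2, the antigen that marks classical mouse monocytes, had 119.8, 44.2 and 52.4 CPM in high cells, against 569, 429.7 and 165.5 CPM in low cells, and was 4.75-fold (4.12 to 5.48), 9.73-fold (8.23 to 11.6) and 3.16-fold (2.72 to 3.686) lower. Plac8, another monocyte gene, had 42.8, 37.1 and 47.1 CPM against 257, 213 and 130.1 CPM. Fn1, the matrix protein fibronectin, was 15.7-fold (11.9 to 21.0) and 11.4-fold (8.75 to 15.1) lower in populations 1 and 4 but 2.20-fold (2.00 to 2.41) in population 7, where high cells still had 155 CPM. The monocyte homing receptor Ccr2 was not called (131.6, 46.8 and 101.6 CPM in high cells against 155, 152 and 181 CPM in low cells), nor was the integrin subunit Itga4. Ifitm1, an interferon-inducible membrane protein, was among the 12 lowest genes, with 293, 229.8 and 203 CPM in high cells against 1807, 2527 and 767 CPM in low cells. Others of the 12 lowest rested on few molecules. High cells of populations 1, 4 and 7 held 3, 2 and 4 UMIs of Agpat9 and 4, 5 and 4 of Sgms2. F13a1 had 3 UMIs in the high cells of population 4. Mmp12 had 12 UMIs in high and 19 in low cells of population 1.

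**Figure D3:**
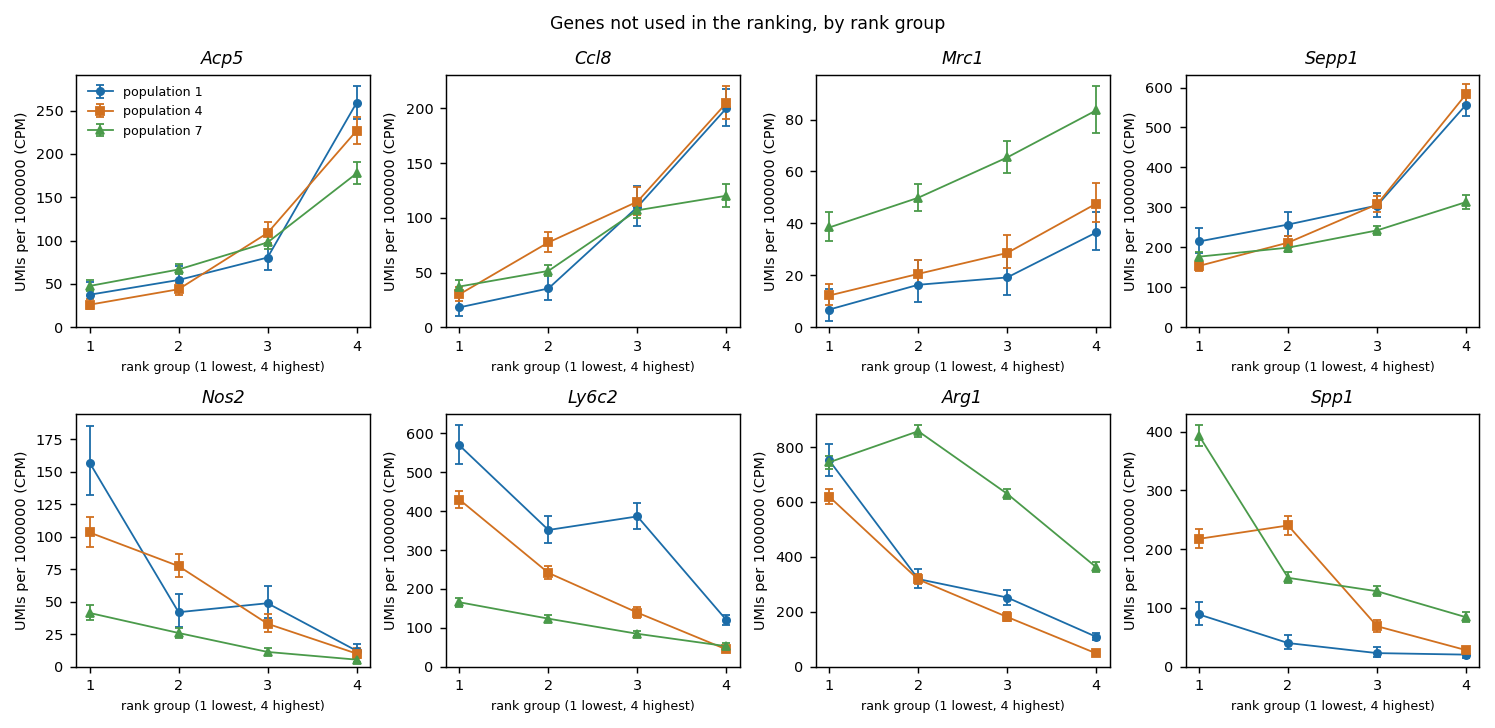
Levels (CPM, y axis) of 4 genes called higher (top) and 4 called lower (bottom) in 4 groups of cells by rank (x axis, 1 lowest and 4 highest) within populations 1, 4 and 7, with exact 95% Poisson intervals. The higher genes climb in every population, whereas Arg1 in population 7 and Spp1 in population 4 peak in group 2, at 858 and 240.3 CPM.

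Enzymes that compete for arginine were both lower. Arg1, arginase, had 108, 47.9 and 362 CPM in Tmem176-high cells, against 751, 619 and 745 CPM in Tmem176-low cells, and was 6.93-fold (6.03 to 7.98), 12.9-fold (11.04 to 15.2) and 2.06-fold (1.94 to 2.19) lower. Nos2, the inducible nitric oxide synthase, had 12.2, 9.98 and 5.31 CPM against 157, 103 and 41.2 CPM, and was 12.9-fold (8.76 to 19.5), 10.3-fold (7.28 to 15.1) and 7.76-fold (4.99 to 12.7) lower. With each cell thinned to 5000 UMIs, 2.75%, 2.45% and 2.80% of high cells held a Nos2 UMI in populations 1, 4 and 7, against 38.5%, 28.2% and 11.7% of low cells (unthinned, 6.44%, 7.91% and 6.28% against 40.7%, 41.4% and 20.5%). The share in B cells, which should lack Nos2, was 0.311% (0.526% unthinned, median depth 3039 UMIs). Thinning left out 20, 11 and 9 shallower high cells and 16, 34 and 25 low cells, and used 322 of 3611 B cells. In each population the thinned share of high cells lay below the interval of the low cells.

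Of 17 measured genes that respond to low oxygen or serve glycolysis, 7 were called lower in Tmem176-high cells, where 2.32% of all genes were. The other 10 were not called, none of the 17 had a mean above 0, and the median log2 ratio was -0.77. Egln3, an oxygen-sensing hydroxylase, had 5.90, 1.14 and 8.69 CPM in Tmem176-high cells against 18.2, 9.72 and 24.8 CPM in Tmem176-low cells. Ndrg1, a gene of the hypoxia response, had 24.7, 15.7 and 21.7 CPM against 77.3, 51.1 and 64.2 CPM, or 3.13-fold, 3.26-fold and 2.96-fold lower, an even difference over the populations. Bnip3, which marks mitochondria for removal, had 58.6, 47.6 and 147 CPM against 181, 157 and 242 CPM. The glycolytic enzyme Pgk1 and the growth factor Vegfa were called as well, with mean log2 ratios of -1.02 and -1.26, while Gapdh (-0.57) and Aldoa (-0.53) were lower by less than 2-fold.

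Lipid genes split. Of 12 lipid-associated macrophage genes measured, 3 were called higher and 3 lower, where 1.67% and 2.32% of all genes were. Their median log2 ratio was 0.04. Apoe had 7763, 7833 and 6364 CPM in Tmem176-high cells, against 5314, 2314 and 3209 CPM in Tmem176-low cells, and was 1.46-fold, 3.39-fold and 1.98-fold higher. The tetraspanin Cd63 of late endosomes had 247, 453 and 441 CPM against 123, 151 and 166 CPM. The lipoprotein lipase Lpl was also called, but rested on 1 UMI in the low cells of population 1 and was 1.52-fold and 1.08-fold higher in populations 4 and 7. Spp1, the secreted protein osteopontin, had 20.3, 27.9 and 84.0 CPM in high cells against 88.6, 218 and 393 CPM in low cells, and the fatty acid receptor Cd36 had 17.7, 30.2 and 29.0 CPM against 50, 164 and 56.4 CPM. Trem2, a lipid-sensing receptor, was not called, with 225, 323 and 507 CPM in high cells and 375, 316 and 419.9 CPM in low cells, a direction that turned between populations.

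Among 13 measured genes of cholesterol efflux and the liver X receptors, 2 were called higher and 1 lower, where 1.67% and 2.32% of all genes were. Nr1h3, which encodes the receptor LXR alpha, had 19.2, 22.5 and 22.4 CPM in Tmem176-high cells, against 13.6, 7.84 and 7.80 CPM in Tmem176-low cells, or 1.41-fold (0.741 to 2.89), 2.87-fold (1.81 to 4.70) and 2.88-fold (1.96 to 4.29) higher. It was called with Pltp and not with the Tmem176 genes: ranked on the Tmem176 genes alone, its mean log2 ratio was -0.11, and on Pltp alone 1.31. The cholesterol exporter Abcg1 had 128, 115 and 58.9 CPM in high cells against 51.1, 63.9 and 40.6 CPM in low cells, which stays under the 2-fold rule (0.90), and the exporter Abca1 stood at -0.31. Scd2, a fatty acid desaturase, was called lower (-1.75).

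Antigen presentation and lysosomal genes differed by little and mostly in 1 direction. All 11 MHC class II genes had a mean above 0 and none was called, with a median log2 ratio of 0.30. H2-Eb1, a class II chain, had 11631, 12627 and 9708 CPM in Tmem176-high cells, against 7359, 6421 and 5554 CPM in Tmem176-low cells, or 1.58-fold, 1.97-fold and 1.75-fold higher. Of 17 cathepsin and lysosome genes 14 had a mean above 0 and none was called (median 0.27). The protease Ctsd led with 612, 655 and 468 CPM in high cells against 302, 318 and 350.2 CPM in low cells, while Ctsl and Ctsc had means of -0.39 and -0.32. Over all genes the median was -0.06, and 46.3% of genes had the same direction in all 3 populations.

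Genes induced by interferon gamma had a median log2 ratio of -0.47 over 12 measured, and 2 were called lower, where 2.32% of all genes were. Gbp2, a guanylate-binding protein, was called lower beside Nos2, with 237, 324 and 535 CPM in Tmem176-high cells against 750.0, 938 and 649 CPM in Tmem176-low cells. The receptor chain Ifngr1 was the only one of the 12 above 0 (0.51). Tmem176b is known as a brake on the inflammasome. Of 13 genes of the inflammasome and interleukin 1 axis the 2 called were Il1rn and the decoy receptor Il1r2, both lower, where 2.32% of all genes were. Il1rn, the receptor antagonist, had 43.1, 65.0 and 98.0 CPM in high cells against 209, 232 and 131.1 CPM in low cells. Il1b itself was not called, with 849, 634 and 514 CPM in high cells and 1082, 931 and 1038 CPM in low cells. Of the MS4A family, relatives of the Tmem176 genes, none of 9 measured was called, and Ms4a7, a macrophage member, had 1622, 1638 and 1754 CPM in high cells against 934, 922 and 1170 CPM in low cells (0.74).

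**Figure D4:**
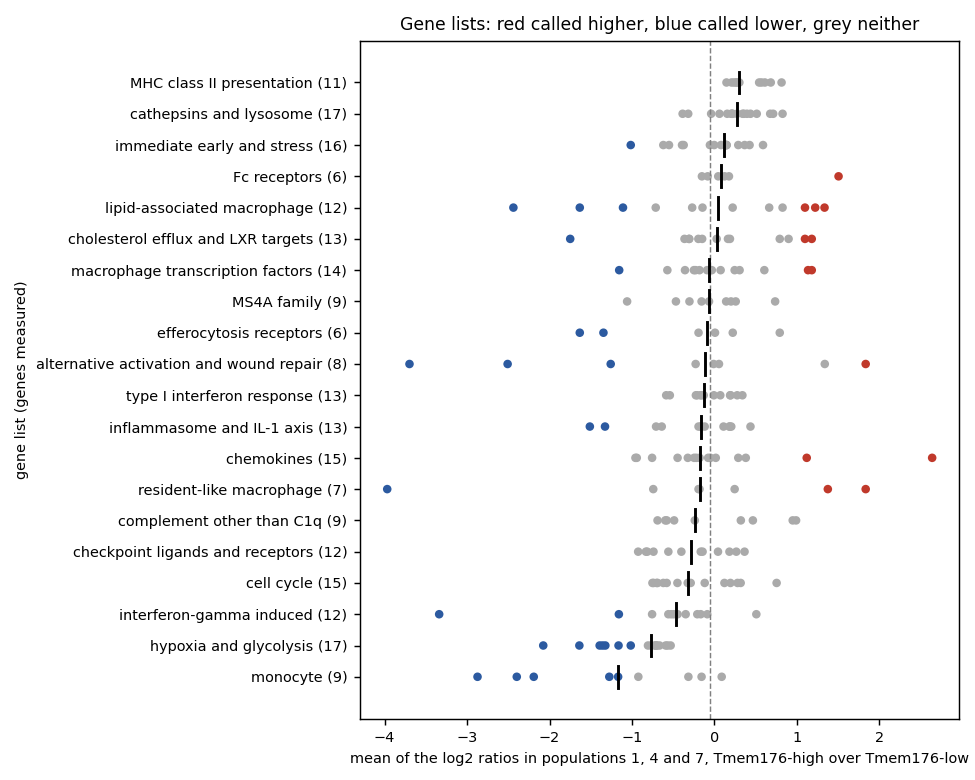
Mean log2 ratio (x axis) of Tmem176-high over Tmem176-low macrophages for each measured gene of 20 lists (y axis, with the number measured), black bars marking list medians and the dashed line the median of all genes, -0.06. The monocyte and hypoxia lists lie farthest below the dashed line, at -1.17 and -0.77, and the MHC class II list farthest above it, at 0.30.

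Markers of other cells were mostly low but not equal. The B cell list summed to 55.7, 36.8 and 48.3 CPM in Tmem176-high cells, against 15.9, 16.9 and 33.8 CPM in Tmem176-low cells, and its 2 measured genes, Cd79b and Cd22, were called higher. The list for conventional dendritic cells, 4 of 8 measured, summed to 174, 153 and 128 CPM in high cells against 119, 99.7 and 105 CPM in low cells, with Cd209a at 0 in both. T cell genes summed to 13.3, 8.55 and 9.41 CPM in high cells against 15.9, 15.4 and 11.6 CPM in low cells. Genes of migratory dendritic cells summed to 82.6, 81.8 and 137 CPM in high cells against 92.045, 94.97 and 88.7 CPM in low cells. Of these, Ccr7 was 3.82-fold (2.51 to 5.97) higher in population 7 and lower in populations 1 and 4. Natural killer cell genes summed to 21.75, 11.4 and 4.35 CPM in high cells against 10.2, 27.3 and 6.204 CPM in low cells. Among them Gzma was 9.41-fold higher in population 1, on 1 UMI in low cells, and lower in populations 4 and 7. Neutrophil genes summed to 70.0, 74.4 and 30.2 CPM against 58.0, 33.5 and 21.2 CPM, nearly all of it Csf3r, and endothelial genes to 126, 88.4 and 32.1 CPM against 59.1, 79.9 and 35.02 CPM, most of it Pecam1. The list for plasmacytoid dendritic cells came to 1235, 1231 and 1062 CPM in high cells against 1079.5, 1287 and 938 CPM in low cells, most of it the interferon-inducible Bst2. Fibroblast and erythroid genes stayed under 2 CPM in either class. Every cell with a UMI of the B cell genes Cd79b and Ms4a1 or the neutrophil genes S100a8 and S100a9 was then left out. No T cell or natural killer cell gene was in that filter. This kept 1844 macrophages and gave 117 genes higher and 185 lower, 85 and 160 of them among the original calls. The part of these markers in the other differences was not tested.

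Ranking on part of the score changed both the gene and the size of the bottom group, since cells tied at 0 stay together: 652 top cells stood against 1435 bottom cells on the Tmem176 genes and 857 on Pltp, and these changes cannot be told apart. Ranked on the Tmem176 genes alone, 76 of 10366 genes were higher in top cells (0.733%) and 156 lower (1.5%), and ranked on Pltp alone 101 of 9948 (1.02%) and 177 (1.78%). Of these, 30 were higher and 90 lower in both, which is 39.5% of the 76 and 29.7% of the 101, and 57.7% of the 156 and 50.8% of the 177, and none was called in opposite directions. Acp5, Klra17 and Clec4b1 were called either way. Ccl8 was 0.91 on the log2 scale with the Tmem176 genes and -0.03 in population 7, but 2.97 with Pltp, where every population passed 2.49. Apoe, Mrc1, Sepp1 and Cd63 were likewise called with Pltp and under 1 with the Tmem176 genes. In the other direction the tetraspanin Tspan33 (1.92 with the Tmem176 genes, 0.73 with Pltp) and the solute carrier gene Slc22a18 (1.69, 0.28) were called with the Tmem176 genes alone, and the phospholipase Plcb1 was lower by more with them (-3.75, -1.42). F13a1, Mmp12, Nos2, Arg1, Ly6c2 and Spp1 were called lower both ways. The rankings share cells, so their likeness is no independent support.

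**Figure D5:**
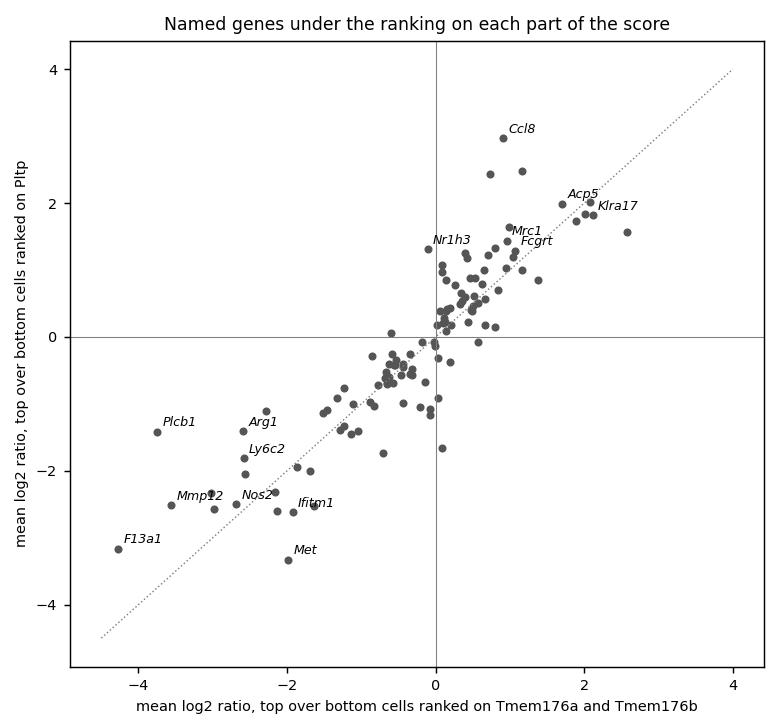
Mean log2 ratio of top over bottom cells for the named genes when macrophages were ranked on Tmem176a and Tmem176b (x axis) or on Pltp (y axis); the dotted line marks equal values. Nr1h3 (-0.11, 1.31), Ccl8 (0.91, 2.97) and the lower gene Plcb1 (-3.75, -1.42) lie far above the line.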

How the data were processed

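RNA of single cells of 1 pool was captured from its 5′ end with the 10x HT kit, per the labels' protocols. The deposited table holds raw UMI counts, whole numbers for each feature in each cell. Per the submitters' processing notes the authors ran Cell Ranger 8.0.1, and per the series' design text on mm10-1.2.0. The use of intron reads and of the strand is not stated. Of 21624 barcodes 21531 passed 200 genes and 20% mitochondrial UMIs, and none was under 500 UMIs. A hashtag was given where its antibody count was at least 3 times the next. The members and gene lists were chosen with earlier results of these data known. Ratios come from summed counts within a population, with a count of 0 set to 3, exact conditional binomial intervals for ratios, exact Poisson for levels and exact Clopper-Pearson for shares. The classes hold 10426905 (high) and 9138486 (low) UMIs. The text names the 12 called genes with the highest and the 12 with the lowest mean, the 4 most changed of each list, and members of the lists it counts. The genes singled out for differing between the rankings, Tspan33, Slc22a18 and others, were chosen after their values were seen. Trac, Trbc2 and Ighm were not used here. Tools were Python 3.11.15, numpy 2.4.6, scipy 1.17.1, pandas 2.3.3, scanpy 1.11.5 (Scrublet at an expected 8%), anndata 0.12.19 and matplotlib 3.10.9.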

Additional observations from a re-analysis of the deposited data

Results flagged for a closer look

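The table holds a second set of 9 tag features, of the kind multiplexing capture, that entered no comparison, with 37370056 UMIs over all barcodes, against 35305304 UMIs of antibody capture. The top tag of this set had the same number as the hashtag in 2589 of 2589 ranked macrophages with a hashtag.

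Outside populations 1, 4 and 7, 21 cells met the limits for macrophages, 5 of them Tmem176-high and 10 Tmem176-low. They lie in samples the comparison left out and held 528 CPM of Tmem176a, 443 CPM of Tmem176b and 179 CPM of Pltp, against 83.4, 196 and 220.4 CPM over all ranked macrophages.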

How the results depend on the processing

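No paired analysis was possible because the ratios come from no test. They were already taken within each population. Against 165 genes higher and 229 lower, ranking after thinning to 2000 UMIs, where ties gave 1065 top and 1517 bottom cells, left 44 and 58, and the top and bottom 50% of cells 84 and 102. Thinning to 10000 UMIs, chosen after seeing the data, gave 155 and 165, with 104 and 146 of them among the original calls. Higher genes came to 76 on the Tmem176 genes alone and to 101 on Pltp alone, with ties at 0 giving 1435 and 857 bottom cells, and lower genes to 431 with the top 10%, 261 cells, against 622 bottom cells tied at 0. At least 200 UMIs a gene left 66 and 134, at least 10 UMIs gave 503 lower, and a limit of 1.5-fold gave 466 and 654. Leaving out a population gave 136 to 238 higher and 190 to 291 lower. The share of Tmem176-high cells in population 1 (31.0%) was 17.5% ranked within populations, 23.3% and 26.3% thinned to 2000 and 10000 UMIs, 47.9% with the top 10%, 22.8% with the top 50%, 26.7% on Pltp alone and 35.8% in cells of 5000 to 20000 UMIs. In population 4 (33.0%) the share was 29.0% on the Tmem176 genes and 36.9% without cells with further B cell or neutrophil genes. In population 7 (34.2%) it was 51.2%, 45.5%, 39.4%, 14.6% and 45.6% under the first 5 of these settings, 38.5% on the Tmem176 genes and 26.9% in cells of 5000 to 20000 UMIs. The causes of the other changes were not tested. Nr1h3 reversed on the Tmem176 genes alone (-0.11). Of 53 named genes called, 22 kept their call in every alternative that measured them. Removing Scrublet doublets or cells over 10% mitochondrial UMIs removed no macrophage. Median ratios over all genes lay at -0.04, -0.06 and -0.08 in populations 1, 4 and 7, and depth limits genes with few UMIs.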

Other observations

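Some further gene groups held no called gene. None of 15 cell cycle genes was called (median log2 ratio -0.32), none of 13 type I interferon genes (-0.13), none of 12 checkpoint ligands and receptors (-0.28) and none of 9 complement genes beside C1q (-0.24). Over all genes 1.67% were called higher and 2.32% lower, so no call in groups of this size lies near that share. The cell cycle median was -0.475, -0.789 and 0.092 in populations 1, 4 and 7, and the type I interferon median 0.434, -0.201 and -0.130. Cd274, which encodes PD-L1, a ligand of PD-1, had 269, 266 and 164 CPM in high cells of populations 1, 4 and 7, against 374, 475 and 211 CPM in low cells. Ifit3, an interferon-stimulated gene, was 2.22-fold higher in population 1 (245 against 110.2 CPM) and 1.08-fold and 1.16-fold lower in populations 4 and 7. Interleukin 10 (Il10) had 18.4, 6.56 and 2.90 CPM in high cells against 1.14, 5.01 and 3.80 CPM in low cells, so that its ratio turned between populations.

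Of 6 Fc receptor genes, Fcgrt, which encodes the neonatal Fc receptor that recycles antibodies, was called higher, with 183, 216 and 128 CPM in Tmem176-high cells against 40.9, 78.4 and 69.2 CPM in Tmem176-low cells. The IgG receptors Fcgr3 and Fcgr4 had mean log2 ratios of -0.15 and 0.12. Among 15 chemokine genes measured, Ccl5 was called higher besides Ccl8, with 1827, 1105 and 497 CPM in high cells against 1148, 530.3 and 161 CPM in low cells. Of 14 transcription factor genes, Pparg, the lipid-sensing receptor PPAR gamma, had 32.1, 25.7 and 18.8 CPM in high cells against 17.0, 5.64 and 15.2 CPM in low cells and was called higher with Nr1h3, and Bhlhe40 was called lower. Beside the counts for Fc receptors, chemokines and transcription factors, 1.67% of all genes measured were called higher and 2.32% lower.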
